A study of Mus musculus with 45 samples.

Results

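The Cyp2 genes are the largest family of drug-, steroid- and fatty acid-metabolizing cytochromes P450 in the mouse, and they were followed here in liver across a dose series of TCDD (2,3,7,8-tetrachlorodibenzo-*p*-dioxin). The members were chosen by symbol alone: Cyp2, 1 letter and digits, with more than 4 reads in any of the 45 libraries. Of 48 such symbols in the count files, 38 were detected and 10 were not (*Cyp2b19*, *Cyp2b23*, *Cyp2c65*, *Cyp2c66*, *Cyp2j7*, *Cyp2j11*, *Cyp2j12*, *Cyp2j13*, *Cyp2t4* and *Cyp2w1*). The 38 members are part of the 17464 genes detected among 39179 listed. They fall into 4 *Cyp2a*, 3 *Cyp2b*, 13 *Cyp2c*, 8 *Cyp2d* and 4 *Cyp2j* genes and single *Cyp2e*, *Cyp2f*, *Cyp2g*, *Cyp2r*, *Cyp2s* and *Cyp2u* genes. The 13 *Cyp2c* genes lie on chromosome 19, the 8 *Cyp2d* genes on chromosome 15, the 4 *Cyp2j* genes on chromosome 4, *Cyp2u1* on chromosome 3 and the other 12 on chromosome 7.

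Female C57BL/6 mice received sesame oil vehicle or 1 of 8 TCDD doses by gavage every 4 days for 28 days. The doses were 0.01 and 0.03, then 0.1 and 0.3, then 1 and 3, and at the top 10 and 30 µg/kg. Each of the 9 groups held 5 mice, and the RNA of each whole liver sample was sequenced separately. The sample labels also describe the animals as ovariectomized and the dosing as daily, which the study's methods do not, and the labels of all 45 mice carry both terms. A level below is given as CPM, the reads of a gene per 1000000 reads on genes after TMM scaling of the libraries, and a level per kb is CPM divided by the length of the gene's exons. Differences are log2 fold changes of a dose against the vehicle, and a gene was called changed with an edgeR quasi-likelihood test at a Benjamini-Hochberg adjusted p under 0.05 over all detected genes.

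A P450 binds heme through a conserved cysteine, takes electrons from NADPH-cytochrome P450 reductase and inserts an oxygen atom into its substrate. In liver the Cyp2 enzymes clear drugs, hydroxylate sex steroids and bile acids and convert arachidonic acid to epoxides and alcohols. Several mouse *Cyp2* genes are sex-biased through the pattern of growth hormone release, and others are induced by the nuclear receptors CAR and PXR. TCDD acts through the aryl hydrocarbon receptor, whose classical P450 targets belong to the Cyp1 family.

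Between 11767284 and 56509899 reads per mouse fell on genes (median 17225047), and 1.503 to 2.73% of them fell on the Cyp2 members. Reads that aligned to more than 1 place are not in the counts. The hepatocyte markers were the highest of the marker lists in every group compared, with a summed level of 129549 to 157667 CPM in the vehicle mice and 113581 to 165983 CPM at 30 µg/kg. *Cyp1a2*, the pericentral P450 that the aryl hydrocarbon receptor induces, ranged from 942 to 1228 CPM in the vehicle mice and from 15492 to 19859 CPM at 30 µg/kg. A pair of libraries stood apart. Replicate numbers here only name the mice in sample order and are not in the labels. The 0.01 µg/kg library called replicate 2 held 49 reads of *Xist*, the RNA of the inactive X chromosome, where the other 44 libraries held 18603 to 81958, and all 4 Y-linked genes examined had 0 reads in every library. The 30 µg/kg library called replicate 4 was the lowest of its group in the summed level of 6 of 7 marker lists, while its *Cyp1a2* level of 18548 CPM lay within the range of its group.

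Many Cyp2 genes are close copies, and this sets what the counts can separate. Over the 50-base read length, a median of 12.9% of the windows of a member's transcript also occurred, letter for letter, in transcripts of other genes. The share was over 10% in 24 of the 38 members and 0 in 5 of them (*Cyp2c23*, *Cyp2c70*, *Cyp2j9*, *Cyp2r1* and *Cyp2s1*). It was highest in *Cyp2c40* (72.1%), *Cyp2c69* (54.8%), *Cyp2c67* (52.8%) and *Cyp2c68* (43.3%), so their counts rest on fewer positions and are less certain. The stretches printed here are the 60 coding bases around the heme-binding signature, the part of a P450 that holds the heme cysteine. They are shown because each set holds relatives whose levels differed after TCDD. They were read 5′ to 3′ from the GENCODE transcripts of GRCm38, and each crosses the junction of exons 8 and 9, or of exons 5 and 6 in *Cyp2d40*. Capitals mark bases that differ from the first line of each set.
*Cyp2c69* (chr19:39843042-39849370, minus strand): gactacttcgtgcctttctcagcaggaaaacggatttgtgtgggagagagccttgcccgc
*Cyp2c40* (chr19:39767456-39773848, minus strand): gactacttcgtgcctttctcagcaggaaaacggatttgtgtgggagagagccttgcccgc
*Cyp2c67* (chr19:39609227-39615644, minus strand): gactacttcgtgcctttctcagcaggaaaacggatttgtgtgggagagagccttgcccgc
*Cyp2c68* (chr19:39689219-39699285, minus strand): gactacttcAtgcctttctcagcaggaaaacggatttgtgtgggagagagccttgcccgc
In this first set 3 genes are identical and *Cyp2c68* differs at 1 base, although *Cyp2c69* and *Cyp2c40* fell strongly at 30 µg/kg and *Cyp2c67* was not called. The second set holds the *Cyp2d* gene that rose, its neighbour that was not called and a relative that fell.
*Cyp2d9* (chr15:82456451-82456610, plus strand): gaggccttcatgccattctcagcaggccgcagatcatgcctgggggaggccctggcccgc
*Cyp2d10* (chr15:82403062-82403221, minus strand): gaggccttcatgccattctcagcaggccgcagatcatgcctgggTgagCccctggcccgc
*Cyp2d40* (chr15:82760050-82760209, minus strand): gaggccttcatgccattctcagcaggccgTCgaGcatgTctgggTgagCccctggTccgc
*Cyp2d10* differs from *Cyp2d9* at 2 of the 60 bases and *Cyp2d40* at 7. The third set compares *Cyp2a5* with a pair of *Cyp2a* genes that each differ from it at 16 bases, and of which *Cyp2a22* fell and *Cyp2a12* was not called.
*Cyp2a5* (chr7:26841845-26842912, plus strand): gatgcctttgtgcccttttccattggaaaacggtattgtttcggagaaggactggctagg
*Cyp2a22* (chr7:26932498-26933503, minus strand): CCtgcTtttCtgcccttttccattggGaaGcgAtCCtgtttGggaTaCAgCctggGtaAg
*Cyp2a12* (chr7:27035428-27036499, plus strand): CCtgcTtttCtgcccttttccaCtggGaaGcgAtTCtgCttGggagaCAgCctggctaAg

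In the vehicle mice, *Cyp2e1*, which oxidizes ethanol, acetaminophen and other small molecules, held the largest single share of the family's level. Per kb of exon it made up 42.6% ± 3.02 (SD, n = 5) of the summed Cyp2 level. The next members per kb were *Cyp2a5*, the coumarin hydroxylase (6.26% ± 0.45), *Cyp2c29*, an arachidonic acid epoxygenase (5.08% ± 1.15), *Cyp2d26* (4.56% ± 0.31) and *Cyp2c37* (3.74% ± 0.18). *Cyp2c29* differed from each of its neighbours in this order, *Cyp2a5* and *Cyp2d26*, by less than 2 of its SDs, so their order is not resolved. The exon length joins all annotated exons and can exceed the transcript with the longest coding sequence. The 2 lengths are 3061 and 1783 bases in *Cyp2c29*, 2918 and 1812 in *Cyp2c50*, and 2073 and 2013 in *Cyp2a5*. The order below *Cyp2e1*, and which members are in it, therefore depends on the length used. At the other end *Cyp2d11*, *Cyp2d12*, *Cyp2d34*, *Cyp2j8* and *Cyp2s1* averaged under 20 reads in every group, and their values are the least precise. In the other 33 members, the coefficient of variation between the 5 vehicle mice ranged from 2.23% in *Cyp2c50* to 45.8% in *Cyp2c55*, with a median of 14.1%.

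The summed level of the family was lower at 30 µg/kg. The sum was 23188 ± 1709 CPM in the vehicle mice and 18467 ± 1882 CPM at 30 µg/kg (SD, n = 5). In between, the group given 3 µg/kg held 23454 ± 2376 CPM and the group given 10 µg/kg 21703 ± 1843 CPM. The vehicle mice ranged from 20411 to 24516 CPM and the mice at 30 µg/kg from 17026 to 21668, so the groups overlapped. Relative to the vehicle mean, the sum at the highest dose was 79.6% ± 8.11, and 92.2% ± 7.16 when the libraries were not TMM-scaled. Without *Cyp2e1* the sum was 85.6% of the vehicle mean. By subfamily, *Cyp2j* was at 59.2%, *Cyp2b* at 64.3% and *Cyp2e1* at 71.6%, and each of these stayed below the vehicle mean without TMM scaling. *Cyp2c* was at 88.3% and *Cyp2d* at 98.4% of the vehicle mean, but without TMM scaling these sums were 102% and 113%, so their direction depends on the scaling. In bulk liver RNA, fewer cells of a type and less RNA per cell cannot be told apart.

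**Figure D1:**
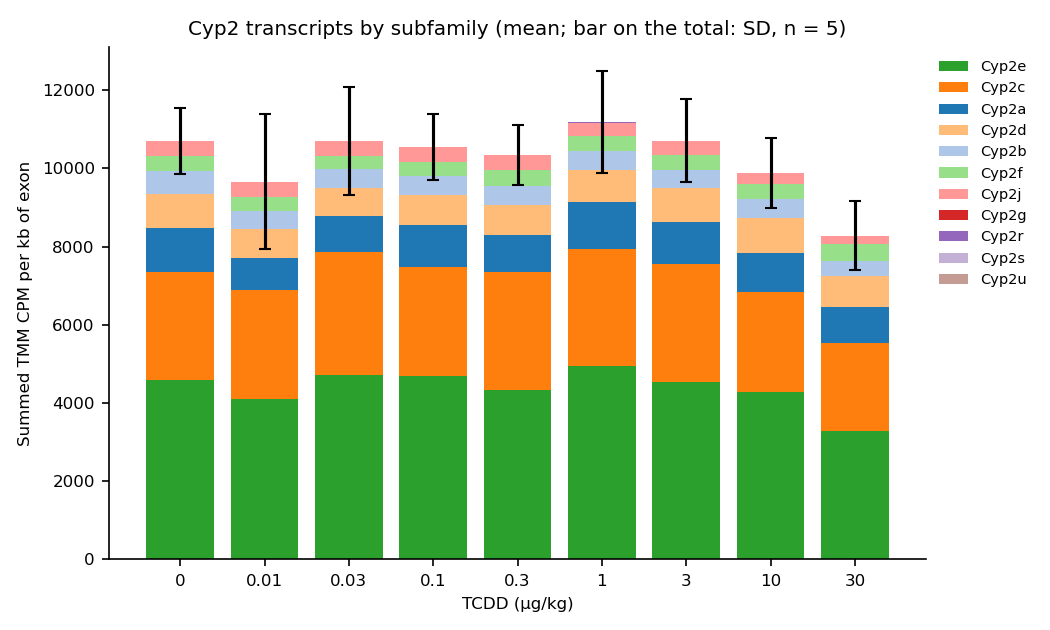
Summed Cyp2 level (TMM CPM per kb of exon, vertical axis) by TCDD dose (µg/kg, horizontal axis), stacked by subfamily as the mean of 5 mice, with an error bar of 1 SD on the total. *Cyp2e1* is the largest block at every dose, and the total at 30 µg/kg was 77.4% of the vehicle mean. The direction of the *Cyp2c* and *Cyp2d* sums at 30 µg/kg as CPM turned upward without TMM scaling.

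Few members changed at low doses and most changes appeared at 10 and 30 µg/kg. At 0.01, 0.03 and 0.1 µg/kg, 0 members were called by edgeR or DESeq2. Over all detected genes 0%, 0.0573% (0.0344% higher and 0.0229% lower) and 0.0229% were called by edgeR. An unadjusted edgeR p under 0.05 was found in 9, 8 and 4 members, beside 1760, 2042 and 900 of all 17464 genes. The 0.3 µg/kg dose called 1 member (0.464% of all genes, 0.321% higher and 0.143% lower), and it was lower. The 1 µg/kg dose called 2 members (1.76% of all genes), 1 higher (1.24%) and 1 lower (0.515%). The 3 µg/kg dose called 6 members (7.54% of all genes), 3 higher (4.34%) and 3 lower (3.2%). The 10 µg/kg dose called 9 of 38 members (15.9% of all genes), 1 higher (8.47%) and 8 lower (7.47%). The 30 µg/kg dose called 20 of 38, which is 52.6% of the members beside 29.6% of all genes. Of these, 3 were higher (15.5% of all genes were higher) and 17 were lower (14.1% of all genes were lower). The test of all 8 doses together called 24 members (28.8% of all genes). These included *Cyp2c37*, *Cyp2d10*, *Cyp2d22* and *Cyp2u1*, which were called at no single dose. *Cyp2c29* and *Cyp2e1*, called at 30 µg/kg, were not among them. All of these comparisons share the 5 vehicle mice.

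**Figure D2:**
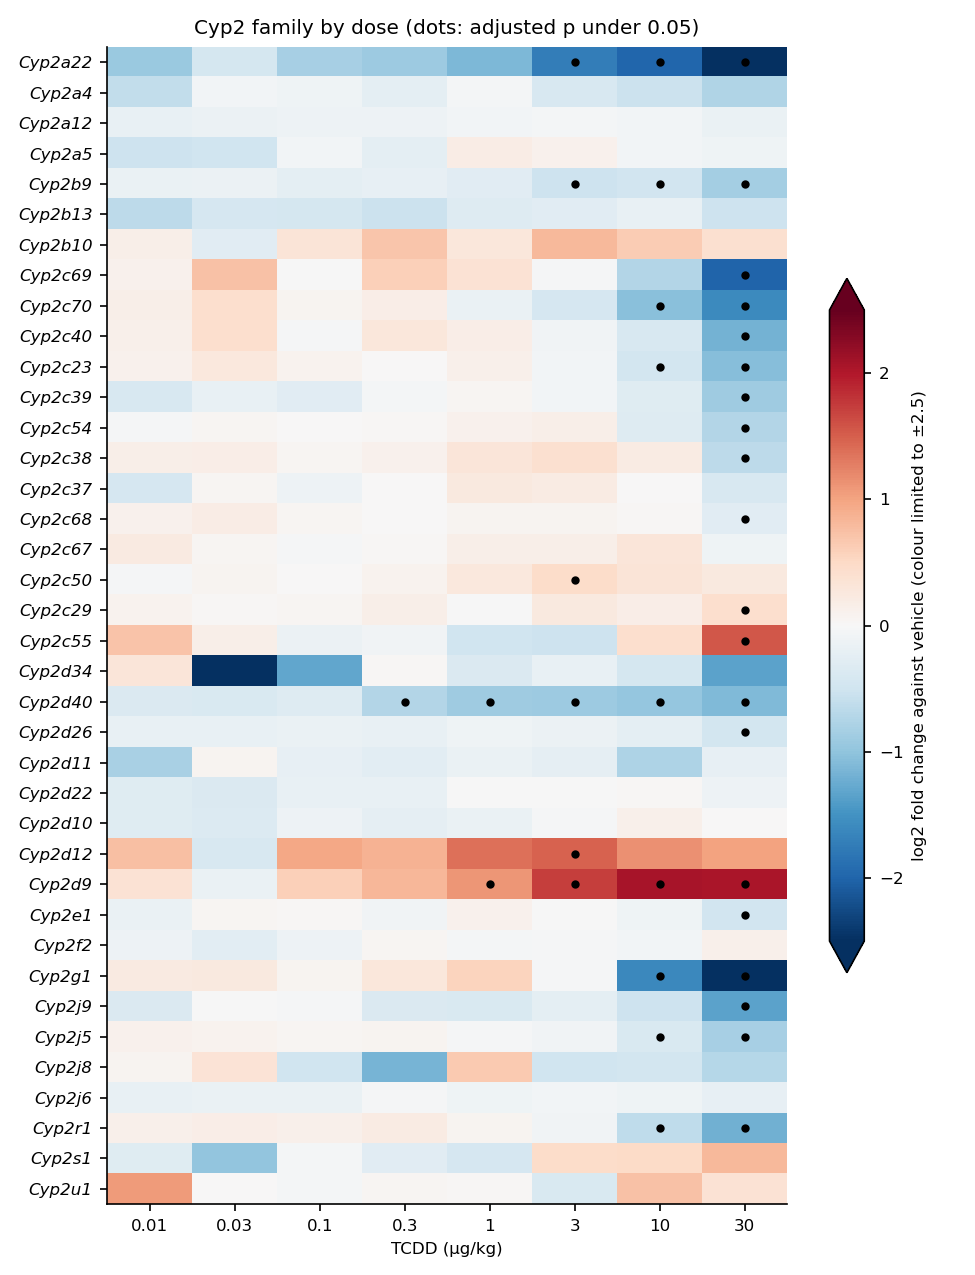
Log2 fold change against the vehicle (colour, limited to ±2.5) for the 38 members (rows) at each TCDD dose (columns, µg/kg), with a dot where the edgeR adjusted p was under 0.05. Dots are absent at the 3 lowest doses and most dense at 30 µg/kg, where 17 members were lower and 3 higher.

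The median log2 fold change over the 38 members at 30 µg/kg was -0.47, beside 0.02 over all detected genes, and 28 members lay below 0. Without TMM scaling the median over all genes moved to 0.23, that of the members was -0.26, and 22 members lay below 0. *Cyp2a5*, *Cyp2a12*, *Cyp2c67*, *Cyp2d11*, *Cyp2d22* and *Cyp2j6* changed sign with that scaling, and none of these 6 was called. At least 2-fold changes were called in 11 members (11.4% of all genes), 2 higher (8.03%) and 9 lower (3.42%). In 12 members the 5 mice at 30 µg/kg did not overlap the 5 vehicle mice, where 19.9% of all genes did so. *Cyp2d9* was the member wholly above (10.3% of all genes), and 11 were wholly below (9.57%).

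**Figure D3:**
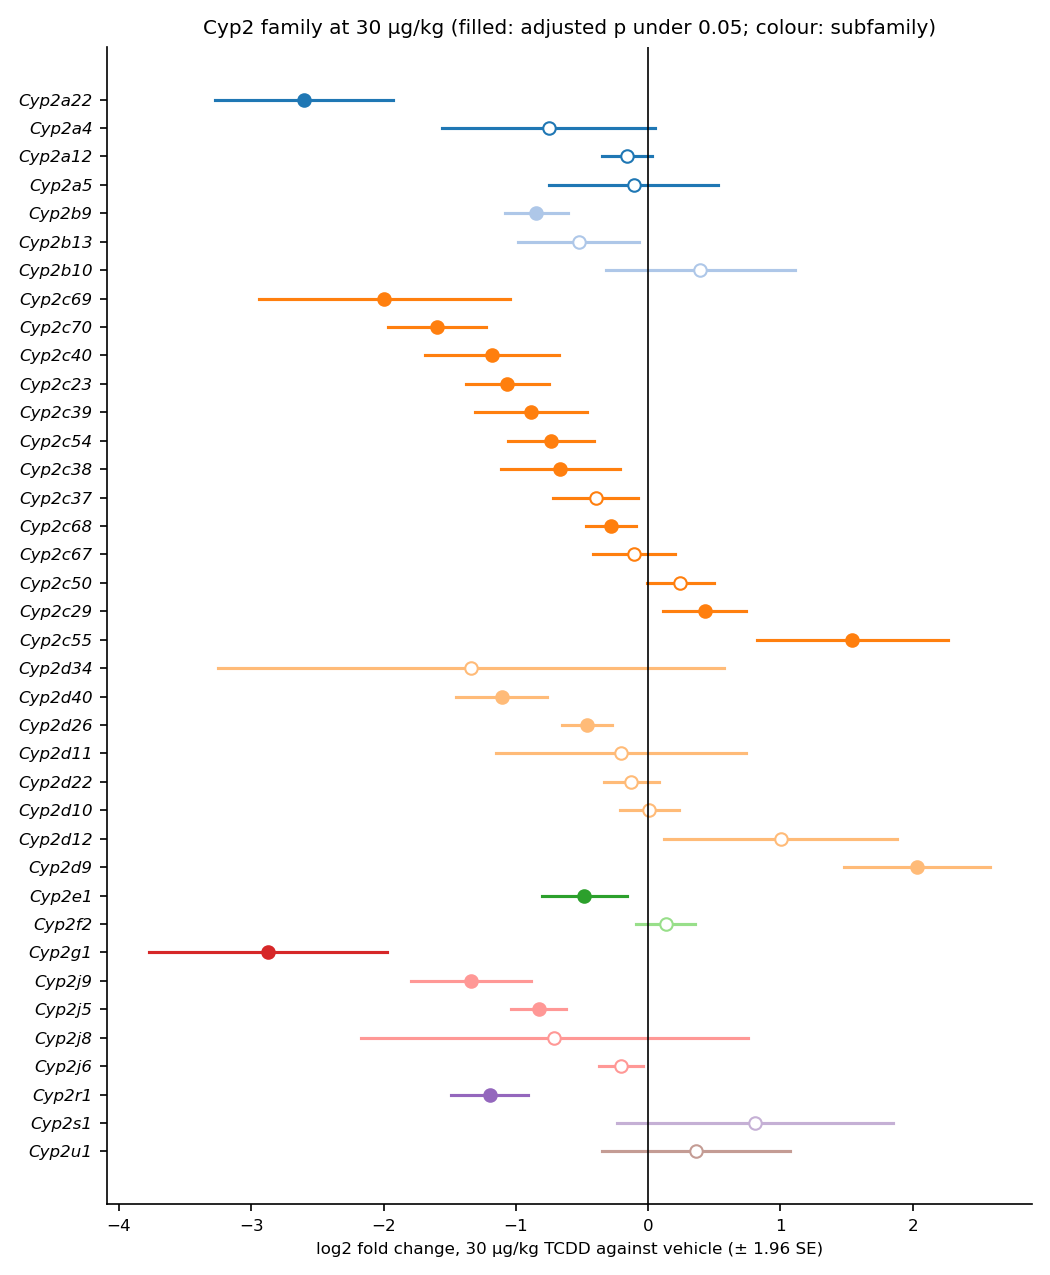
Log2 fold change at 30 µg/kg against the vehicle (horizontal axis, point with its 95% interval) for each of the 38 members, coloured by subfamily and filled where the edgeR adjusted p was under 0.05. *Cyp2d9*, *Cyp2c55* and *Cyp2c29* are the filled points above 0, and *Cyp2g1* at -2.87 is the lowest of the 17 filled points below it. Without TMM scaling 6 members that were not called changed sign.

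The largest rise in the family was in *Cyp2d9* (ENSMUSG00000068086, chr15:82433437-82456845, plus strand), a testosterone hydroxylase known as a male-predominant gene of mouse liver. Its level in the 5 vehicle mice was 88.9, 76.4, 93.4, 65.2 and 92.1 CPM. The mice given 30 µg/kg held 329, 284, 281, 488 and 319 CPM. Every mouse at 30 µg/kg lay above every vehicle mouse. The log2 fold change was 2.03 (SE 0.28), with an edgeR adjusted p of 2.9e-07 and an exact two-sided permutation p of 0.007937, the smallest that 5 mice against 5 can give. The rise was already called at 1 µg/kg (178 ± 55.97 CPM, log2 fold change 1.10, edgeR adjusted p = 0.0214), where it was lost on leaving out vehicle replicate 2 or 4 or dosed replicate 2. It was 1.73 at 3 µg/kg and 2.07 at 10 µg/kg, and 30 and 10 µg/kg differed by -0.04 (edgeR adjusted p = 1.00), so the rise did not grow further. At 0.3 µg/kg all 5 mice (121 to 204 CPM) also lay above the vehicle range, without passing the test. At 0.01 µg/kg the library low in *Xist* held the highest *Cyp2d9* level of its group (220 CPM, the others 52.8 to 108). Of the windows of its transcript 29.04% occurred in other genes, and 9.26% of its exon bases overlap other genes on the same strand.

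*Cyp2c55* (ENSMUSG00000025002, chr19:39007019-39042693, plus strand), an arachidonic acid hydroxylase known to be induced through PXR and CAR, was called higher at 30 µg/kg. At 0.01 and 10 µg/kg it was at 162% and 134% of the vehicle mean without being called, and 30 against 10 µg/kg was not called with all mice (log2 fold change 1.11, SE 0.36, edgeR adjusted p = 0.197). Its level was 15.5, 8.97, 5.05, 8.60 and 6.17 CPM in the vehicle mice and 31.6, 37.8, 18.8, 11.1 and 29.3 CPM at 30 µg/kg. Of the dosed mice 4 lay above the vehicle range and replicate 4 lay inside it. This gave a log2 fold change of 1.54 (SE 0.37, edgeR adjusted p = 0.00116). *Cyp2c29* (ENSMUSG00000003053, chr19:39269405-39330713, plus strand) was 1874, 1809, 1345, 1833 and 1358 CPM in the vehicle mice and 2432, 2505, 2306, 1644 and 2154 CPM at 30 µg/kg. Again 4 mice were above the vehicle range and replicate 4 was inside it. The log2 fold change of 0.43 (SE 0.16, edgeR adjusted p = 0.0378) is small, and the call was lost in 6 of 10 fits that left out a mouse of these groups. *Cyp2b10*, the gene most used as a marker of CAR activity, went from 42.3 ± 5.97 to 55.6 ± 17.3 CPM at 30 µg/kg. It was not called there (log2 fold change 0.39, 95% interval -0.32 to 1.11). At 0.03, 0.3, 3 and 10 µg/kg it stood at 82.2%, 163%, 174% and 155% of its vehicle mean, also uncalled. Its mice at 0.3 µg/kg ranged from 26.4 to 167 CPM. When the vehicle and 3 µg/kg were fitted alone, *Cyp2b10* was called higher at that dose.

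The deepest falls were in *Cyp2g1* and *Cyp2a22*, both on chromosome 7. *Cyp2g1* (ENSMUSG00000049685, chr7:26808892-26821205, plus strand), a steroid hydroxylase best known from the olfactory mucosa, was 4.53, 4.64, 8.20, 3.22 and 4.80 CPM in the vehicle mice. At 10 µg/kg it was 2.37, 1.26, 1.90, 1.61 and 1.12 CPM, and at 30 µg/kg 0.496, 0.401, 0.919, 1.06 and 0.481 CPM. The 3 groups did not overlap. Log2 fold changes were -1.61 (SE 0.41) at 10 µg/kg and -2.87 (SE 0.46) at 30 µg/kg, with edgeR adjusted p of 0.00445 and 4.44e-06. The level at the highest dose rests on a mean of 13.8 reads per mouse, beside 83.4 in the vehicle mice.

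*Cyp2a22* (ENSMUSG00000091867, chr7:26931631-26939384, minus strand) was 122, 114, 117, 143 and 148 CPM in the vehicle mice. Mice given 3 µg/kg held 34.5, 46.4, 45.8, 48.2 and 19.7 CPM, and those given 30 µg/kg 32.8, 14.3, 22.8, 17.3 and 18.8 CPM. No dosed mouse of these groups reached the vehicle range. Its log2 fold change was -1.73 (SE 0.33, edgeR adjusted p = 0.000392) at 3 µg/kg and -1.98 (SE 0.33, edgeR adjusted p = 2.38e-05) at 10 µg/kg. It reached -2.60 (SE 0.34, edgeR adjusted p = 1.02e-07) at the highest dose. The level was already at 52.3% of the vehicle mean at 0.01 µg/kg and at 73.9% at 0.03 µg/kg, neither of which was called (edgeR adjusted p = 0.326 and 0.623). *Cyp2a4* and *Cyp2a5*, from the same cluster, were not called at any dose, although *Cyp2a4* was called lower at 10 and 30 µg/kg when the vehicle and that dose were fitted alone. *Cyp2a5* was 1233, 1603, 1352, 1279 and 1473 CPM in the vehicle mice and 1315, 1052, 1033, 1755 and 1275 CPM at 30 µg/kg. It had a log2 fold change of -0.11 (95% interval -0.75 to 0.53), and 0.09 without TMM scaling.

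**Figure D4:**
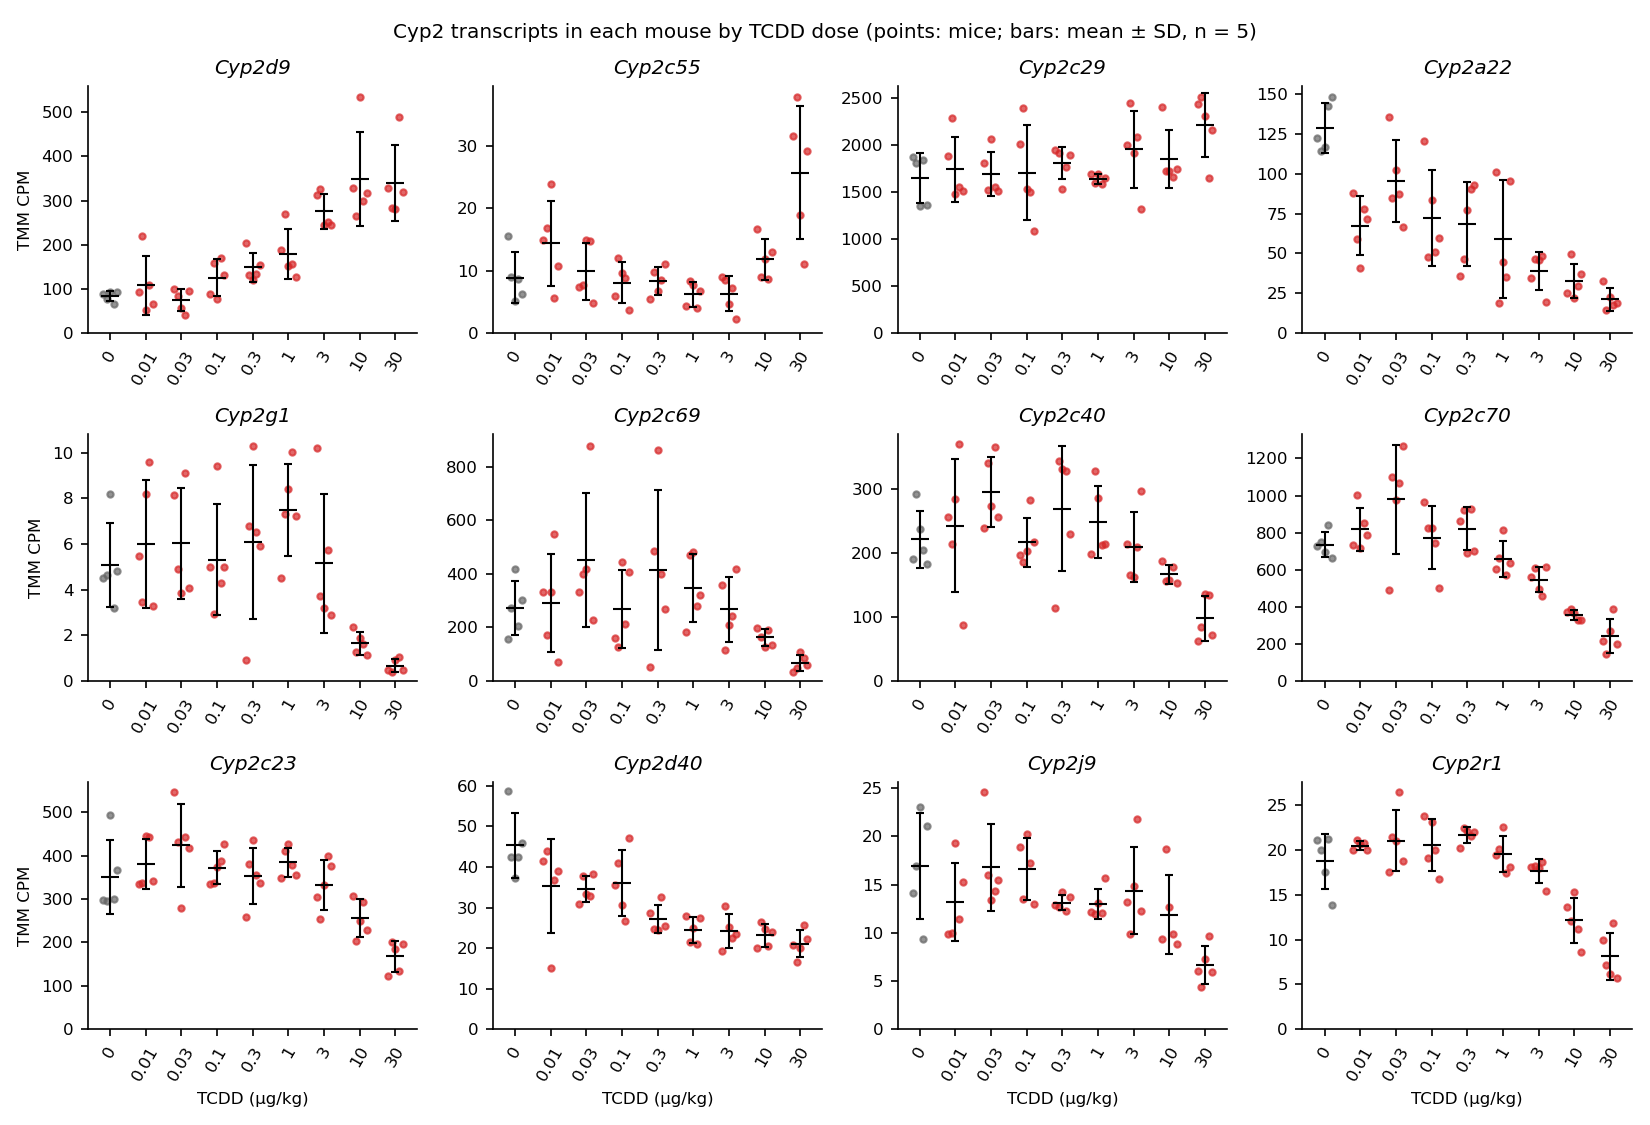
Level of single Cyp2 members (TMM CPM, vertical axes starting at 0) in each mouse by TCDD dose (µg/kg, horizontal axes), where points are mice and bars the mean ± SD of 5. *Cyp2d9* climbs from 83.2 CPM in the vehicle to 340.2 CPM at 30 µg/kg, while *Cyp2a22* falls from 129 to 21.2 CPM.

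*Cyp2d40* (ENSMUSG00000068083, chr15:82759833-82764183, minus strand) was the member that fell at the lowest dose. It was 58.7, 42.5, 37.2, 42.5 and 45.9 CPM in the vehicle mice, and 28.6, 24.6, 24.6, 32.7 and 25.4 CPM at 0.3 µg/kg. These groups did not overlap. The log2 level differed by -0.74 (SE 0.17, edgeR adjusted p = 0.0317), but the call was lost on leaving out any of vehicle replicates 1, 2 and 5 or dosed replicates 1, 2, 3 and 5. At 1, 3, 10 and 30 µg/kg it was -0.89, -0.90, -0.97 and -1.11, each called by edgeR, and the 5 mice at 30 µg/kg held 20.6, 16.6, 20.1, 25.7 and 22.2 CPM. From 0.3 µg/kg upward the group means stayed between 21.1 and 27.2 CPM. Both *Cyp2d9* and *Cyp2d40* had reached most of their change by 3 µg/kg, in opposite directions.

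*Cyp2c70* (ENSMUSG00000060613, chr19:40153353-40187333, minus strand), which makes the muricholic acids particular to rodent bile, was 728, 747, 695, 841 and 664 CPM in the vehicle mice. Mice given 10 µg/kg held 371, 390.3, 366, 331 and 329.7 CPM, and those given 30 µg/kg 214, 145, 270.2, 387 and 199 CPM. Both doses lay wholly below the vehicle range, and replicate 4 at 30 µg/kg lay inside the range at 10 µg/kg. Log2 fold changes were -1.04 (SE 0.19, edgeR adjusted p = 7.08e-05) at 10 µg/kg and -1.60 (SE 0.19, edgeR adjusted p = 9.7e-09) at 30 µg/kg. At 3 µg/kg all 5 mice (457 to 614 CPM) were below the vehicle range without passing the test. When the vehicle and that dose were fitted alone, *Cyp2c70* was called lower there. No window of its transcript occurred in another gene.

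*Cyp2r1* (ENSMUSG00000030670, chr7:114549682-114562972, minus strand), the vitamin D 25-hydroxylase, was 21.1, 19.97, 17.6, 21.2 and 13.8 CPM in the vehicle mice and 9.92, 7.15, 6.12, 11.8 and 5.69 CPM at 30 µg/kg, without overlap. Its log2 fold change was -0.63 (SE 0.15) at 10 µg/kg and -1.20 (SE 0.15) at 30 µg/kg, with edgeR adjusted p of 0.0018 and 2.81e-08. Its transcript too shared no window with another gene.

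Enzymes that convert arachidonic acid were described by a list of 17 genes, of which 15 were detected, 8 were lower and 2 were higher at 30 µg/kg (14.1% of all genes were lower and 15.5% higher). Of the 38 members, from which the detected genes of this list all come, 44.7% were lower and 7.89% higher. The higher were *Cyp2c29* and *Cyp2c55*, and the lower were *Cyp2c23*, *Cyp2c38*, *Cyp2c39*, *Cyp2c40*, *Cyp2c54*, *Cyp2c70*, *Cyp2j5* and *Cyp2j9*, of which *Cyp2c70* is better known for bile acids. *Cyp2c23* (ENSMUSG00000025197, chr19:44005022-44029208, minus strand; formerly *Cyp2c44*), an epoxygenase, was 298, 296, 493, 301 and 366 CPM in the vehicle mice and 123, 201, 184, 135 and 195 CPM at 30 µg/kg. The groups did not overlap, and the log2 fold change was -1.06 (SE 0.16, edgeR adjusted p = 1.76e-06). Its fall of -0.45 at 10 µg/kg (edgeR adjusted p = 0.0454) was lost on leaving out vehicle replicate 3 or 5 or dosed replicate 2, 3 or 5, without TMM scaling, and when every gene with at least 1 read was tested. *Cyp2j9* (ENSMUSG00000015224, chr4:96568429-96591578, minus strand), a hydroxylase of the same substrate, was 14.2, 16.9, 23.05, 9.35 and 21.1 CPM in the vehicle mice and 6.00, 4.41, 7.32, 9.69 and 5.93 CPM at 30 µg/kg. Here replicate 4 at 30 µg/kg lay just above the lowest vehicle mouse. For *Cyp2j9* the log2 fold change was -1.34 (SE 0.23, edgeR adjusted p = 1.71e-05).

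*Cyp2j5*, an epoxygenase of liver and kidney, was the member called between the 2 highest doses. It ranged from 663 to 847 CPM in the vehicle mice, from 506 to 639.9 CPM at 10 µg/kg and from 337 to 598 CPM at 30 µg/kg. Its mice at these 2 doses overlapped. Those of *Cyp2b9*, *Cyp2c23*, *Cyp2c40*, *Cyp2c69* and *Cyp2g1* did not, although these genes were not called between the doses. How many of all genes did so was not counted. Against the vehicle it had log2 fold changes of -0.39 at 10 µg/kg and -0.83 (SE 0.11) at 30 µg/kg. Between these doses it was -0.44 (SE 0.11, edgeR adjusted p = 0.0332), the 1 call among the members, where 0.613% of all genes were called. That call was lost on leaving out any of replicates 1, 2 and 3 at 10 µg/kg or replicates 1, 2, 3 and 5 at 30 µg/kg. Without replicate 4 at 30 µg/kg, 8 members were called between these doses, 7 of them lower (*Cyp2c38*, *Cyp2c54*, *Cyp2c68*, *Cyp2c70*, *Cyp2j5*, *Cyp2j9* and *Cyp2r1*) and *Cyp2c55* higher. In that fit the calls over all genes also went up, from 107 (75 higher and 32 lower) to 274 (118 higher and 156 lower). Leaving out vehicle replicate 3 or 5, 0.03 µg/kg replicate 3 or 4 or 10 µg/kg replicate 5 also changed which members were called there. With all mice, 33 of 38 members had a lower fitted level at 30 than at 10 µg/kg. The median log2 fold change between these doses was -0.33 over the members and -0.002 over all detected genes. An unadjusted edgeR p under 0.05 was found in 18 members, beside 1320 of all 17464 genes.

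Replicate 4 at 30 µg/kg held the highest level of its group in 13 of the 17 members that were lower. It held the lowest level in 2 of the 3 that were higher. Its macrophage marker sum of 112 CPM lay in the vehicle range of 110.4 to 182 CPM, and its stellate cell sum of 127 CPM in that of 82.7 to 128 CPM. Its endothelial sum of 145 CPM and biliary sum of 53.3 CPM also lay in the vehicle ranges (123 to 156 and 52.1 to 77.8 CPM). Its lymphocyte sum of 15.7 CPM and erythroid sum of 73.4 CPM lay above them (8.08 to 15.01 and 57.2 to 71.3 CPM). Its hepatocyte sum of 121626 CPM lay below the vehicle range of 129549 to 157667 CPM. Without this mouse 21 members were called at 30 µg/kg in place of 20, and *Cyp2j6* was the gain. Over all genes 5493 were called in place of 5167. The log2 fold changes of the named members then ranged from -3.06 in *Cyp2g1* to 1.87 in *Cyp2d9*. The part of the marker levels in these results was not tested.

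*Cyp2e1* (ENSMUSG00000025479, chr7:140763739-140774987, plus strand) was 7584, 10627, 11134, 9486 and 10607 CPM in the vehicle mice and 6956, 7135, 7014, 8715 and 5555 CPM at 30 µg/kg. Of the dosed mice 4 lay below the vehicle range and replicate 4 lay inside it. *Cyp2e1* had a log2 fold change of -0.48 (SE 0.16, edgeR adjusted p = 0.0224), and the call was lost without TMM scaling (-0.27, edgeR adjusted p = 0.178) and in 3 of 10 fits that left out a mouse. *Cyp2d26* was 807, 893, 837, 861 and 960.3 CPM in the vehicle mice and 693, 500.1, 612, 697 and 662 CPM at 30 µg/kg, wholly below (log2 fold change -0.46, SE 0.10, edgeR adjusted p = 0.000221). *Cyp2c37* was 659.9, 729, 792, 677 and 789 CPM in the vehicle mice and 688, 342, 501, 593 and 645 CPM at 30 µg/kg. It was not called (log2 fold change -0.40, 95% interval -0.72 to -0.08, edgeR adjusted p = 0.062). The other members that were lower at 30 µg/kg were *Cyp2c39* (-0.88), *Cyp2b9* (-0.84), *Cyp2c54* (-0.73), *Cyp2c38* (-0.66) and *Cyp2c68* (-0.28). *Cyp2c38* ranged from 120 to 142 CPM in the vehicle mice and from 46.6 to 182 CPM at 30 µg/kg, where replicate 4 lay above every vehicle mouse and the other 4 below. Its log2 fold change was -1.19 without that mouse. The calls of *Cyp2c38* and *Cyp2c68* were lost without TMM scaling (-0.48 and -0.07) and in the fit of the vehicle and that dose alone (edgeR adjusted p = 0.097 and 0.0714). *Cyp2c50* (0.45) and *Cyp2d12* (1.48, under 20 reads on average) were called higher at 3 µg/kg, and either call was lost in several fits that left out a mouse. Uncalled at 1, 10 and 30 µg/kg, *Cyp2c50* stood at 120%, 124% and 118% of its vehicle mean and *Cyp2d12* at 279%, 229% and 213%. Without TMM scaling both were also called higher at 10 and 30 µg/kg.

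The *Cyp2c40* group shows how far near-identical genes moved apart. *Cyp2c69* (ENSMUSG00000092008, chr19:39842814-39886799, minus strand) was 156, 274, 419, 206 and 303 CPM in the vehicle mice and 34.1, 49.4, 109, 86.6 and 61.6 CPM at 30 µg/kg. *Cyp2c40* (ENSMUSG00000025004, chr19:39767071-39812814, minus strand) was 189.9, 292, 237, 204 and 182 CPM in the vehicle mice and 61.8, 83.6, 136, 135 and 72.5 CPM at 30 µg/kg. Neither gene had a dosed mouse inside its vehicle range. The log2 fold changes were -1.995 (SE 0.48, edgeR adjusted p = 0.00144) and -1.18 (SE 0.26, edgeR adjusted p = 0.000467). *Cyp2c67*, whose coding sequence is 97.7% identical to both, was not called (-0.11, 95% interval -0.42 to 0.20). Within each mouse, the ratio of *Cyp2c67* to *Cyp2c69* was 0.46 to 0.87 in the vehicle group and 1.53 to 3.46 at 30 µg/kg. *Cyp2c69* was also among the most variable members, with 50.7 to 861 CPM at 0.3 µg/kg.

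Over all 11 pairs of members with at least 95% coding identity, the within-mouse ratio at 30 µg/kg lay wholly above its vehicle range in 4 pairs, wholly below in 3 and overlapped it in 4. Several pairs share a gene, so they are not separate cases, and above or below follows only from which gene is written first. Ratios of other gene pairs were not formed, so these counts have no share over all genes beside them. These ratios are a description without a test, and they do not depend on the scaling of the libraries. *Cyp2a12* to *Cyp2a22*, at 97.0% identity, went from 3.91 to 5.33 in the vehicle mice to 15.7 to 37.3 at 30 µg/kg. *Cyp2c50* to *Cyp2c54*, at 95.2% identity, went from 1.88 to 2.52 in the vehicle mice to 3.31 to 7.05. In the opposite order, *Cyp2c40* to *Cyp2c68* went from 0.45 to 0.63 in the vehicle mice to 0.19 to 0.35, and *Cyp2c37* to *Cyp2c50* from 0.61 to 0.76 to 0.36 to 0.56. The ratio of *Cyp2a4* to *Cyp2a5*, at 98.5% identity, overlapped (0.26 to 0.45 and 0.12 to 0.35).

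**Figure D5:**
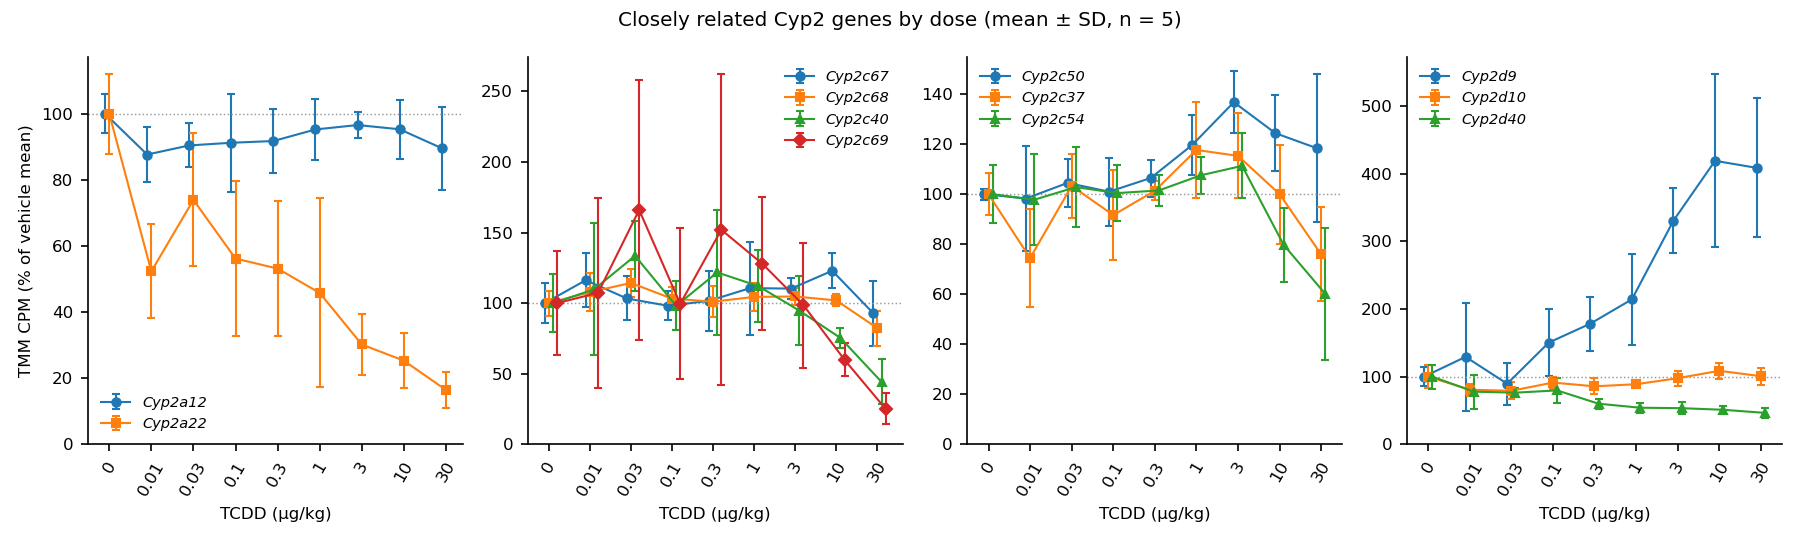
Level of closely related Cyp2 genes as a percent of each gene's vehicle mean (vertical axes) by TCDD dose (µg/kg, horizontal axes), as the mean ± SD of 5 mice. *Cyp2a22* ended at 16.4% of its vehicle mean and *Cyp2a12*, which was not called, at 89.6%.

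Sex-biased and inducible members were grouped by lists. Of 7 female-biased Cyp2 genes, 4 were lower at 30 µg/kg (*Cyp2b9*, *Cyp2c40*, *Cyp2c69* and *Cyp2g1*) and 0 higher by edgeR, beside 14.1% lower and 15.5% higher of all genes. Of all 38 members, 44.7% were lower and 7.89% higher at that dose. The median log2 fold change of the 7 genes was -0.84, beside -0.47 over the 38 members and 0.02 over all genes. The summed level of the 7 genes was 1784 to 2281 CPM in the vehicle mice and 966 to 1291 CPM at 30 µg/kg, without overlap. The 1 male-biased gene listed, *Cyp2d9*, was higher. Of 5 detected Cyp2 genes listed as responsive to CAR or PXR, 2 were higher (*Cyp2c29* and *Cyp2c55*) and 0 lower by edgeR (15.5% and 14.1% of all genes), with a summed level of 3529 to 4196 CPM in the vehicle mice and 3921 to 4514 CPM at 30 µg/kg. The sex-biased list and the inducible list share *Cyp2b10*.

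Genes of the regulators are given beside the 15.5% of all genes that were higher and the 14.1% that were lower. Of 12 genes of growth hormone signalling and sex-biased transcription, 1 was lower at 30 µg/kg and 0 were higher: *Ghr*, the growth hormone receptor, went from 767 ± 73.8 to 327 ± 72.1 CPM, a log2 fold change of -1.23 (SE 0.13, edgeR adjusted p = 3.03e-10). *Stat5b*, which carries the growth hormone signal to the nucleus, was not called (-0.02, SE 0.15). Of 20 nuclear receptors and liver transcription factors, 1 was higher, *Nfe2l2* (1.24, SE 0.09), the activator of antioxidant genes. A pair was lower: *Cebpa* (-0.90, SE 0.16) and *Nr3c1* (-0.54, SE 0.09), the glucocorticoid receptor. *Nr1i3*, which encodes CAR, and *Nr1i2*, which encodes PXR, were not called (-0.21, SE 0.27, and -0.12, SE 0.24).

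Of 17 genes that supply P450 enzymes with electrons and heme, 1 was higher and 5 were lower at 30 µg/kg, beside 29.6% of all genes called in either direction. *Por*, the reductase that all of these P450 enzymes need, was not called (0.37, SE 0.37). *Hmox1*, which degrades heme, was higher (1.01, SE 0.29). *Alad*, an early enzyme of heme synthesis, was lower (-0.92, SE 0.14), as were *Ppox* and *Uros* of the same pathway (-0.40 and -0.32), *Cyb5b* (-0.67) and *Cyb5r3* (-0.65).

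Position in the liver lobule was described outside the family, since several Cyp2 genes are expressed around the central vein. Of 13 pericentral genes 5 were higher at 30 µg/kg and 2 lower, where 15.5% of all genes were higher and 14.1% lower. *Cyp1a2*, itself induced by the aryl hydrocarbon receptor, was among the higher (3.97). *Glul*, the glutamine synthetase of the innermost cells, was among the lower (-0.46, SE 0.16). The median log2 fold change of the 13 genes was -0.17. Of 11 periportal genes 2 were higher, *Cdh1* (1.15, SE 0.27) and *Hsd17b13* (0.33, SE 0.12). The 5 lower included *Hal* (-1.05, SE 0.20) and *Cps1* (-0.99, SE 0.21), and the median of the 11 periportal genes was -0.55. Of the marker lists of other cells, 3 of 9 macrophage, 3 of 6 lymphocyte, 3 of 7 stellate, 4 of 6 endothelial and 3 of 4 erythroid genes were higher and none of these lists had a lower gene. The 6 biliary genes were not called. The macrophage sum was 110.4 to 182 CPM in the vehicle mice and 112 to 308 CPM at 30 µg/kg, and the lymphocyte sum 8.08 to 15.01 and 15.7 to 32.1 CPM. The stellate sum was 82.7 to 128 and 127 to 300.1 CPM, the endothelial sum 123 to 156 and 145 to 231 CPM, the erythroid sum 57.2 to 71.3 and 73.4 to 150.3 CPM, and the biliary sum 52.1 to 77.8 and 53.3 to 70.3 CPM. Of the 11 hepatocyte markers 6 were lower at 30 µg/kg, while *Alb* was not called (-0.08). The lymphocyte marker *Ms4a1* and the biliary marker *Cftr* were at 0 in some vehicle mice and above 0 in every mouse at 30 µg/kg. The part of these cell types in the Cyp2 differences was not tested.

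The bases around the transcription start were read from RefSeq (GRCm38.p6), 250 before and 50 after each start, for the 31 members that matched by symbol. GCGTG, the core of the site bound by the aryl hydrocarbon receptor, was searched on both strands. It was present in 4 of 31 members (12.9%; *Cyp2b10*, *Cyp2c68*, *Cyp2j9* and *Cyp2r1*) and in 35.2% of the 27025 genes with such a window. TTCNNNGAA, the site bound by STAT5 proteins, was present in 0 of 31 members and in 9.55% of all genes. *Cyp2d9*, *Cyp2c55* and *Cyp2c29* were not among the members with GCGTG. The 65 bases around 3 of the matches are printed because these are the letters a receptor site would need. Capitals mark GCGTG, or CACGC where it lies on the opposite strand.
*Cyp2j9* (chr4:96591622-96591686, minus strand, 171 bases before the start): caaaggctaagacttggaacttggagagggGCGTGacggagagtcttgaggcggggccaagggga
*Cyp2c68* (chr19:39741197-39741261, minus strand, 130 bases before the start): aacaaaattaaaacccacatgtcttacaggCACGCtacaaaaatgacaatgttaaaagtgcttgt
*Cyp2b10* (chr7:25897527-25897591, plus strand, 101 bases before the start): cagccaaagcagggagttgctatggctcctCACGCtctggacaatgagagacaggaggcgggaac
The match of *Cyp2r1* is not wholly before its start and is not printed, and *Cyp2b10* holds another match 9 bases before its start. *Cyp2j9*, *Cyp2c68* and *Cyp2r1* were lower at 30 µg/kg and *Cyp2b10* was not called. A match of 5 letters is a description of the sequence and not a bound site.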

How the data were processed

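RNA from 45 mouse livers, 5 in each of 9 groups formed from the labels, was sequenced by the authors as 50-base single reads from an unstranded kit. The authors aligned the reads to GRCm38 (release 74) with TopHat 1.4.1 and counted them per gene with HTSeq 0.6.1, and deposited raw counts. Alignments that were not unique were left out of the counts, at 0.67 to 1.41 for each read on genes, so levels of close copies may be underestimates. Reads outside genes or in overlapping genes were 10.7 to 18.4% of the other reads and were not used. Random samples were sequenced in pools that the labels do not give, so no comparison within pools was made.

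Counts were fitted with edgeR 4.0.16 in R 4.3.3 (TMM scaling, all 45 mice in 1 fit, 1 coefficient per group, quasi-likelihood test, Benjamini-Hochberg adjustment within each comparison over the 17464 genes with more than 4 reads in any mouse). The SE is the absolute log2 fold change divided by the square root of F. This test replaces the study's normalization and empirical Bayes step, which were not repeated. Single members were also compared with exact two-sided permutation tests. The fit was also run on counts simulated with the same spread for every gene. That run does not bear on the scaling of the libraries, on which several calls depend. Alternatives were DESeq2 1.42.0 (size factors or test), no TMM factors, other filters, fits of the vehicle and 1 dose, and each mouse left out in turn.

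The members and lists were chosen with earlier results of these data known. Full values were given for members called at 30 µg/kg whose fold change was 2 or more over a mean of 10 reads or more. They were also given for the 5 with the highest vehicle level per kb of exon. *Cyp2j5*, *Cyp2b10*, *Cyp2c50* and the other members outside this rule were chosen after their values were seen. Gene positions are those of GENCODE M21 on GRCm38, a later annotation than the one used for counting. The values of 1 marker gene are not reported here.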

Additional observations from a re-analysis of the deposited data

Results flagged for a closer look

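In each group of 5 mice, the highest and the lowest mouse of each of the 16 fully described members were compared with the rest of the group by Dixon's gap test. It flagged 7 of 144 groups, where chance flags about 1 in 20. *Cyp2d9* was flagged at both of the highest doses. At 10 µg/kg replicate 3 held 534.9 CPM beside 265.5 to 328.4 in the other 4 mice, and at 30 µg/kg replicate 4 held 488.5 CPM beside 280.7 to 329.2. Both mice lay above the rest of groups that were already wholly above the vehicle range. *Cyp2d40* was 15.2 CPM in replicate 3 at 0.01 µg/kg and 36.82 to 43.82 CPM in the others, although that group was not called. *Cyp2c69* was 878.2 CPM in replicate 4 at 0.03 µg/kg beside 229.3 to 417. *Cyp2j9* was 24.59 CPM in replicate 1 at 0.03 µg/kg beside 13.45 to 16.04. *Cyp2r1* was 15.37 CPM in replicate 5 at 3 µg/kg beside 17.94 to 18.69. *Cyp2c29* was 2400 CPM in replicate 1 at 10 µg/kg beside 1654 to 1743.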

How the results depend on the processing

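Among the 22 members with a log2 fold change followed at 30 µg/kg, all 22 kept their direction and their side of the threshold with DESeq2 size factors, the DESeq2 test and edgeR's own filter on low counts. Without TMM factors, the members called higher at 30 µg/kg went from 3 to 6 (with *Cyp2c50*, *Cyp2d12* and *Cyp2f2*), those at least 2-fold lower from 9 to 5, those higher at 10 µg/kg from 1 to 3, those lower between 30 and 10 µg/kg from 1 to 0, and the summed level from 79.6% to 92.2% of the vehicle mean. All genes called higher and lower at 30 µg/kg then went from 2700 and 2467 to 4996 and 1222, and *Cyp2a5* went from -0.11 to 0.0944. The median over all genes moved with this setting from 0.02 to 0.23. Fits of the vehicle and 1 dose alone gave 1 member higher at 0.3 µg/kg (*Cyp2d9*) in place of 0. At 3 µg/kg these fits gained *Cyp2b10* as higher and *Cyp2c70* as lower. At 10 µg/kg they gave 3 higher, and *Cyp2a4*, *Cyp2c40* and *Cyp2c69* were also gained as lower. At 30 µg/kg *Cyp2a4* and *Cyp2b13* were gained and *Cyp2c38* and *Cyp2c68* lost as lower. The DESeq2 test gave 2 lower at 1 µg/kg (with *Cyp2a22*) in place of 1. Testing every gene with at least 1 read left 0 members lower between 30 and 10 µg/kg, and lost *Cyp2c29* at 30 µg/kg and *Cyp2c23* at 10 µg/kg. The cause was not tested for these 3 settings.

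Over the fits that each left out 1 mouse, the members called higher and lower ranged from 0 to 0 and 0 to 1 at 0.3 µg/kg, 0 to 1 and 1 to 2 at 1 µg/kg, 1 to 3 and 3 to 3 at 3 µg/kg, and 1 to 1 and 7 to 9 at 10 µg/kg. At 30 µg/kg they ranged from 2 to 3 and 15 to 18, and at least 2-fold from 2 to 3 and 8 to 11. Members called at any dose ranged from 20 to 24, and those between 30 and 10 µg/kg from 0 to 1 higher and 0 to 7 lower. At 1 µg/kg *Cyp2a22* was gained without dosed replicate 1 or 5. At 3 µg/kg *Cyp2c50* or *Cyp2d12* was lost without vehicle replicate 1, 2 or 3 or dosed replicate 1, 2, 3 or 4. At 30 µg/kg *Cyp2c29* was lost in 6 of these 10 fits and *Cyp2e1*, *Cyp2c38* and *Cyp2c68* in 3 each. Leaving out 0.01 µg/kg replicate 2 left 0 members called at that dose. No paired analysis was possible because the labels carry no replicate numbers, and those used here follow sample order. Members under 20 mean reads are limited by depth.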
